A study of Mus musculus with 8 samples.

Results

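The genes described here are 10 genes of the CSF1, TNF receptor and NF-kB pathways in the mouse neural retina: the ligands Csf1 and Il34, the receptors Tnfrsf1a and Tnfrsf1b, the inhibitors Tnfaip3 and Nfkbia, the NF-kB subunit Relb, and the leukocyte adhesion and chemokine genes Vcam1, Icam1 and Ccl2. They were taken by symbol from the 43472 symbols in the count files of 8 libraries, and all 10 were found. They were selected on the measured Mfp2-/- against control difference in these same libraries, so that difference is described for them and not tested. The study asked how loss of MFP2 (multifunctional protein 2), a peroxisomal enzyme of fatty acid beta-oxidation, affects the retina. Each library was made from both neural retinas of 1 mouse in a C57BL/6J background, aged 3 weeks (postnatal day 21). The 4 control mice were 3 Mfp2+/+ mice and 1 Mfp2+/- mouse (control replicate 2), and the other 4 mice were Mfp2-/-, which lack the gene in all cells. The labels name no treatment.

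CSF1 and IL-34 are secreted ligands of the same receptor, CSF1R, on which microglia depend for survival and proliferation. TNF binds TNFR1 and TNFR2, encoded by Tnfrsf1a and Tnfrsf1b, and TNFR1 passes the signal through adaptor proteins to the IKK kinase complex. IKK marks the inhibitor IkB-alpha, encoded by Nfkbia, for destruction, and the freed NF-kB dimers then enter the nucleus and switch on genes such as Vcam1, Icam1 and Ccl2. NF-kB also switches on its own inhibitors Nfkbia and Tnfaip3, the latter encoding A20, so that the inhibitors usually report the same signal that they restrain.

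In Mfp2-/- retinas 9 of the 10 genes were at higher levels than in control retinas and 1, Tnfaip3, was at a lower level. In none of the 10 genes did the groups overlap. The difference was smallest for Nfkbia, at 1.31-fold higher, Ccl2 was at least 19.1-fold higher, and Tnfaip3 was 7.21-fold lower. With adequate counts 7 of the 10 genes could enter edgeR's fit over all genes, and the genes left out were Relb, Icam1 and Ccl2. Csf1 and Tnfrsf1b reached the level required by the filter in all 4 Mfp2-/- libraries but in no control. Tnfaip3 reached it in all controls but not in all Mfp2-/- libraries. The filter itself thus favoured a difference in these genes. In that fit 5 genes were called higher, 1 was called lower and Nfkbia was not called, while of all 12516 genes 13.8% were called higher and 13.2% lower at an adjusted p under 0.05. Groups without overlap occurred in 15.1% of all genes in the upward and 15.8% in the downward direction. Since the genes were chosen for this difference, nothing is read from these counts.

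The regulatory sequence upstream of the start site was available in the RefSeq promoter table (GRCm38.p6) for 6 of the 10 genes, Csf1, Tnfrsf1a, Tnfrsf1b, Tnfaip3, Nfkbia and Icam1, with a second start site for Tnfaip3. The 10-base NF-kB (kappa B) consensus was searched on both strands from 250 bases before to 50 bases after each start site. It was found in 3 of the 7 promoters, those of Csf1, Nfkbia and the first start site of Tnfaip3, whereas 4.51% of 32851 mouse promoters held it. In the Tnfaip3 promoter it occurred at 2 places, at -125 to -116 and at -12 to -3 from the start site. In the Nfkbia promoter it lay at -29 to -20 and in the Csf1 promoter at -154 to -145. The shorter 9-base sequence GGAAATTCC, searched on both strands after the promoters had been seen, was present in the promoters of Tnfaip3 (-24 to -16), Nfkbia (-29 to -21, within the consensus match) and Icam1 (-153 to -145), and in 0.317% of all promoters. The gene at a lower level in Mfp2-/- retinas thus carried the same kind of sequence as genes at a higher level. A looser pattern, GGG and CC with any 5 bases between them, was in all 7 promoters but also in 50.8% of all promoters. These matches describe the letters only, and binding was not measured. The 250 bases upstream are printed 5′ to 3′ along the gene for the 4 genes with a consensus or 9-base match, with the matched bases of either kind in capitals. They come from chr3:107760470-107760719 (minus strand) for Csf1, chr10:19015411-19015660 (minus strand) for Tnfaip3, chr12:55492648-55492897 (minus strand) for Nfkbia and chr9:21015690-21015939 (plus strand) for Icam1.
Csf1: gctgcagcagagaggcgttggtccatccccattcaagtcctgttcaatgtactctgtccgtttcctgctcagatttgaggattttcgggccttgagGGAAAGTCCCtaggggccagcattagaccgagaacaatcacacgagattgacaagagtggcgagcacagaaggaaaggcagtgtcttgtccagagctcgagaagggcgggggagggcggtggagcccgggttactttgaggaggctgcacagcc
Tnfaip3: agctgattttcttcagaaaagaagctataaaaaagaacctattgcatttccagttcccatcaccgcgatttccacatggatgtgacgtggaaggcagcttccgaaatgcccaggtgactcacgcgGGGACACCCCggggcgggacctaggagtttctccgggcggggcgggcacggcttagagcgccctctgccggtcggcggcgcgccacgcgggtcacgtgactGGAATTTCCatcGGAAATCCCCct
Nfkbia: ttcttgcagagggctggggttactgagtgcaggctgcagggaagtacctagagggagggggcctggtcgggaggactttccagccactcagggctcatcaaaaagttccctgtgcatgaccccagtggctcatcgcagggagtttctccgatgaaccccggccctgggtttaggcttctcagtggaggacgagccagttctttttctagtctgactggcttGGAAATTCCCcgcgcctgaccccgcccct
Icam1: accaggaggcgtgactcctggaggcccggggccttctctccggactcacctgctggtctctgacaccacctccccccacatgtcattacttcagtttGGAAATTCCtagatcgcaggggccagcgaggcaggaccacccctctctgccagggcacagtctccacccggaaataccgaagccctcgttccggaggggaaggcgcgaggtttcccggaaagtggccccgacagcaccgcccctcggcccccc

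**Figure D1:**
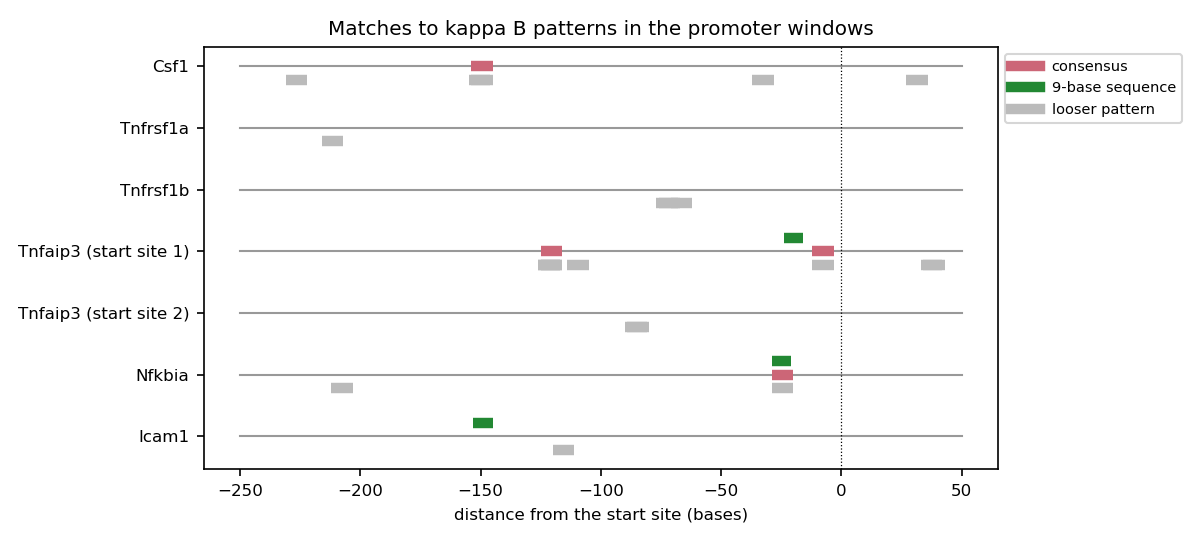
Matches to kappa B patterns in the 7 promoter windows, by distance in bases from the start site (dotted line). Red bars mark the consensus, green bars the 9-base sequence and grey bars the looser pattern, drawn on, above and below each line. The Tnfaip3, Nfkbia and Icam1 windows share the 9-base sequence, and only the first start site of Tnfaip3 has 2 consensus matches.

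The libraries held between 1895485 and 3226187 counts in genes, so that 3 counts corresponded to between 0.968 and 1.52 CPM, the counts scaled to library size. Hsd17b4, which encodes MFP2, had 20 to 78 counts in control and at most 1 count in Mfp2-/- libraries. Mfp2-/- replicates 2 and 3 stood apart, with 20.9% and 27.6% of counted reads outside genes against 36.3% to 46.2% in the other libraries, and with the 2 highest positions on the first principal component. In a sum of 15 rod photoreceptor markers the groups were at 34655 to 38152 CPM (control) and 1668 to 2330 CPM (Mfp2-/-), and all 15 were called lower in edgeR. As these are whole retinas, fewer cells of a type and less RNA per cell cannot be told apart.

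Of the ligands, Csf1 (chromosome 3, 107741048 to 107760469 of GRCm38) showed the larger difference. It was at 2.55, 3.62, 1.94 and 1.39 CPM in control replicates 1 to 4 and at 15.9, 17.8, 13.4 and 13.97 CPM in Mfp2-/- replicates 1 to 4. The means were 2.37 ± 0.955 and 15.3 ± 1.98 CPM (SD, n = 4 mice), a log2 fold change of 2.69 with a standard error of 0.30. The lowest Mfp2-/- retina was thus well above the highest control. In counts this was 25 in all control libraries together against 158 in Mfp2-/- libraries. Il34 (chromosome 8, 110741829 to 110805924), the ligand that neurons are known to supply, was at 15.6, 11.3, 12.9 and 18.8 CPM in control and at 21.9, 29.5, 26.6 and 23.5 CPM in Mfp2-/- retinas. The gap between the groups was narrow, from 18.8 to 21.9 CPM, and the log2 fold change was 0.78 with a standard error of 0.20. Il34 shares 22 and 75 exon bases with genes on the other strand that had 3 and 0 counts.

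The balance of counts between the ligands therefore differed between genotypes. Since these libraries count the 3′ end of each transcript, counts do not rise with transcript length. How fully a 3′ end is counted can still differ from gene to gene. The ratio within a library is therefore compared between genotypes and not read as a ratio of transcript numbers. There were 6.14, 3.13, 6.67 and 13.5 counts of Il34 per count of Csf1 in control replicates 1 to 4 and 1.38, 1.66, 1.98 and 1.68 in Mfp2-/- replicates 1 to 4. Il34 had more counts than Csf1 in every library, and by a smaller ratio in each Mfp2-/- library than in any control library.

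Their receptor Csf1r, on microglia and other macrophages, was at 17.5, 13.1, 15.5 and 16.4 CPM in control and at 56.3, 88.4, 49.1 and 61.0 CPM in Mfp2-/- retinas, and rose by a log2 fold change of 2.01 (SE 0.20, edgeR adjusted p = 4.34e-05). Tyrobp, which encodes the adaptor DAP12 that works with CSF1R and TREM2, rose from 2.10 ± 1.09 to 16.8 ± 2.82 CPM (log2 fold change 3.03, SE 0.32, edgeR adjusted p = 6.65e-05). Both were higher in 4 of 4 Mfp2-/- retinas than in any control. Tyrobp reached the level required by the filter in Mfp2-/- libraries only, so the filter itself favoured a rise in it. Of the 6 genes of the CSF1 axis list besides the ligands, 4 were tested, 2 rose and none fell, and their median log2 fold change was 1.16 against -0.0039 over all genes. The list also holds Csf2ra, Csf2rb and Csf3r, receptor genes of other colony-stimulating factors. Ptprz1 and Csf2ra were tested and not called (log2 fold changes 0.30 and 0.19, edgeR adjusted p = 0.479 and 0.61). Csf1r shares 873 exon bases with Hmgxb3 on the other strand, and whether the counting used strand is not given in the sources used here, so part of its counts may come from Hmgxb3.

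Microglia markers moved with these genes. The summed level of 16 microglia markers was 52.9 to 77.0 CPM in control and 268 to 377 CPM in Mfp2-/- retinas, and all 10 tested markers rose. Of these, Trem2, Aif1 and Cd68 reached the level required by the filter in Mfp2-/- libraries only, so the filter itself favoured a rise in them. Among the markers with counts too low for the fit, P2ry12, P2ry13, Fcrls, Siglech and Gpr34 had overlapping groups. Sall1 had every Mfp2-/- library above every control. None of the 16 was at 0 in all libraries. C1qb, a subunit of complement C1q, rose from 8.99 ± 2.86 to 53.6 ± 16.0 CPM (log2 fold change 2.57, edgeR adjusted p = 7.59e-05). Whether more microglial RNA has a part in the levels of any of the 10 genes was not tested.

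**Figure D2:**
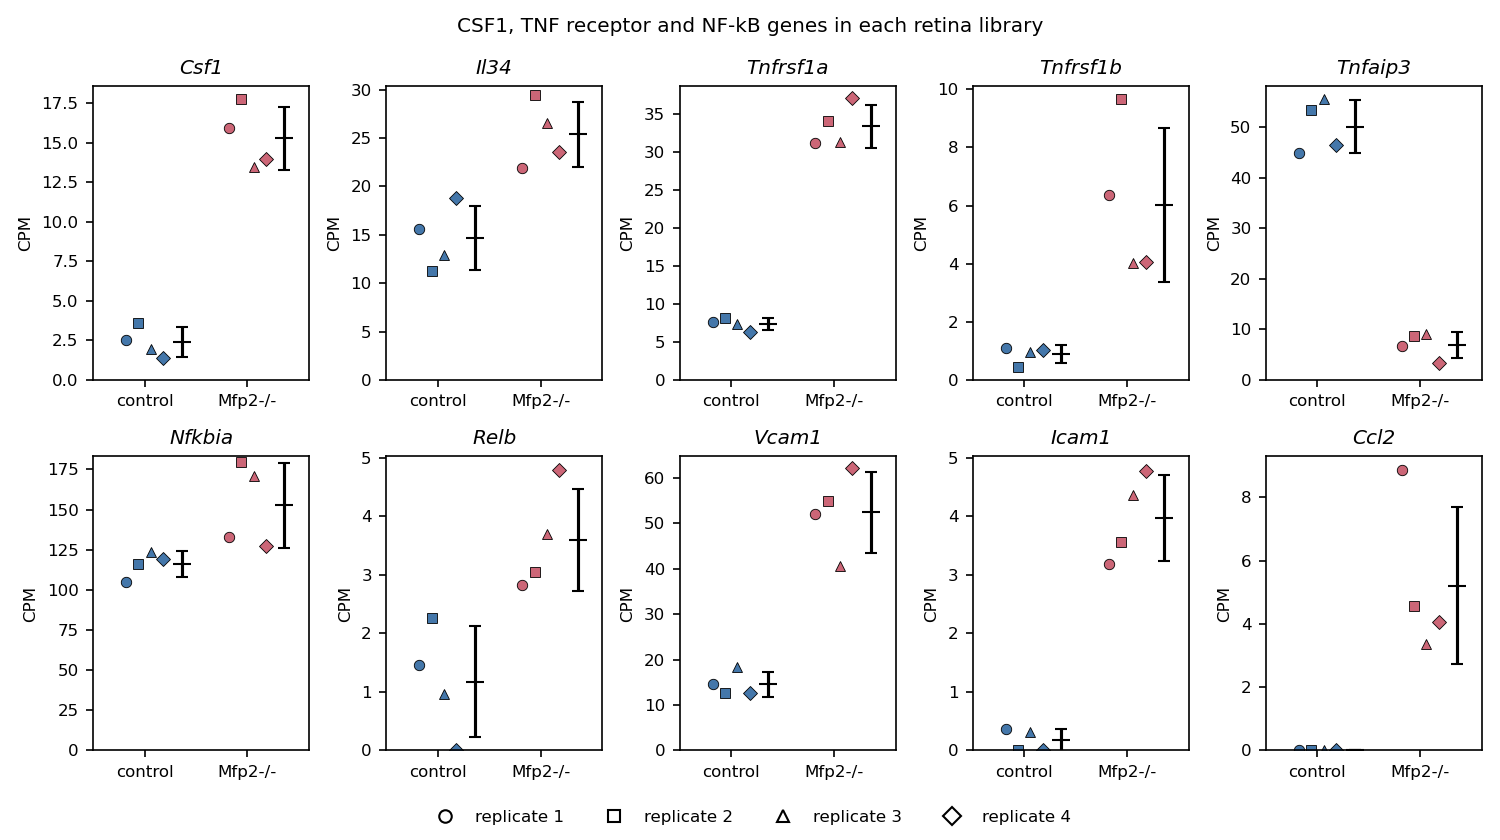
Levels of the 10 genes in CPM (vertical axes, linear and from 0, a scale of its own for each gene) in control (blue) and Mfp2-/- (red) retinas. Each symbol is 1 library, its shape gives the replicate number, which is not known to pair the mice, and the bars are mean ± SD (n = 4). The groups are apart in all 10 panels, with Tnfaip3 the single gene at lower levels in Mfp2-/- retinas.

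The TNF receptors were both higher in Mfp2-/- retinas. Tnfrsf1a (chromosome 6, 125349362 to 125362484), the widely expressed receptor TNFR1, was at 7.64, 8.14, 7.42 and 6.27 CPM in control and at 31.1, 34.0, 31.3 and 37.1 CPM in Mfp2-/- retinas. This was a 4.52-fold difference, with a log2 fold change of 2.18 and a standard error of 0.17. Of the genes with adequate counts apart from Nfkbia it had the smallest standard error, and the 4 libraries of a genotype lay close together. Tnfrsf1b (chromosome 4, 145213463 to 145246870), which encodes TNFR2 and is found mainly on immune and endothelial cells, had only 3, 1, 3 and 3 counts in control and 18, 19, 12 and 11 counts in Mfp2-/- libraries. In CPM the Mfp2-/- retinas were at 6.37, 9.65, 4.03 and 4.04 and the highest control at 1.09, and the log2 fold change was 2.63 with a standard error of 0.45. The larger error goes with the low counts and whether the fold differences of the receptors, 4.52 and 6.18, differ was not tested. The number of Tnfrsf1a counts per Tnfrsf1b count ran from 6.00 to 18.0 in control and from 3.53 to 9.18 in Mfp2-/- libraries, so these ratios overlapped between the genotypes.

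Other receptors of the family were higher too where they were called. Of 17 listed receptors besides Tnfrsf1a and Tnfrsf1b, 3 were tested, 2 rose and none fell. Ltbr, the lymphotoxin beta receptor, which signals to the alternative NF-kB pathway that uses RELB, rose from 9.02 ± 2.86 to 44.7 ± 16.7 CPM (log2 fold change 2.27, SE 0.31, edgeR adjusted p = 0.00037). Tnfrsf21, the death receptor DR6, was at 49.5, 49.8 and 50.01 CPM in Mfp2-/- replicates 1, 3 and 4 and at 90.4 CPM in replicate 2, against 16.0 to 22.6 CPM in control (log2 fold change 1.62, SE 0.23, edgeR adjusted p = 0.000489). All Mfp2-/- retinas were above all controls for both genes. The same was so for 4 of 12 receptors with counts too low for the fit, named after their values were seen. These were Tnfrsf10b (9 and 53 counts in the control and Mfp2-/- groups), Tnfrsf12a (2 and 19), Tnfrsf13b (1 and 13) and Eda2r (1 and 24). For Tnfrsf13b the separation rested on 1 count each, at 0.354 CPM in Mfp2-/- replicate 1 and 0.348 CPM in control replicate 4.

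Of the ligands of these receptors almost nothing could be measured. Tnf itself had 0 counts in all 4 control libraries and 1, 0, 2 and 3 counts in Mfp2-/- replicates 1 to 4. A count of 0 over the control group allows up to 0.274 CPM at 3 counts, for counting error only, and with 6 counts in the other group a difference was not detectable at this depth. Of 17 listed TNF superfamily ligands 9 had any count and 1 could be tested. This was Tnfsf12, which encodes TWEAK and fell from 90.3 ± 9.58 to 18.1 ± 2.93 CPM (log2 fold change -2.31, SE 0.15, edgeR adjusted p = 1.74e-06). It shares 731 exon bases with the read-through gene Tnfsfm13 on the same strand. The receptors were thus higher in retinas in which the TNF transcript was barely sampled and the only ligand of the family that could be tested was lower.

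Between receptor and NF-kB, the adaptors and the IKK complex moved little as a list. Of 23 tested genes of 26 listed, 3 rose and 1 fell, with a median log2 fold change of -0.18. These were 13% and 4.35%, against 13.8% and 13.2% of all genes. Irak4 and Irak1, kinases of the interleukin 1 and Toll-like receptor branch, rose by 1.98 (SE 0.39, edgeR adjusted p = 0.0039) and 0.83 (SE 0.13, edgeR adjusted p = 0.00113) on the log2 scale. Irak4 had 21 counts over the control libraries and shares 395 exon bases with Twf1 on the other strand. Tradd, the adaptor at TNFR1, was at 3.32 ± 1.08 and 6.93 ± 1.599 CPM (log2 fold change 1.04, edgeR adjusted p = 0.0386), and was named after its values were seen to complete the count. Tab3, a partner of the kinase TAK1, fell from 24.5 ± 3.67 to 8.67 ± 6.13 CPM (log2 fold change -1.45, edgeR adjusted p = 0.0267). The calls for Tradd and Tab3 were not kept with some libraries left out, at log2 fold changes of -1.43 to -1.28 for Tab3 and 0.85 to 1.10 for Tradd. Without control replicate 1, control replicate 2, control replicate 4 or Mfp2-/- replicate 3 the adjusted p of Tab3 was 0.0613 to 0.0805. Without both Mfp2-/- replicates 2 and 3, the libraries that stood apart, the log2 fold change of Tab3 was -0.83 (adjusted p = 0.0159). For Tradd it was 0.0526 to 0.104 when any of control replicates 1 to 3 or Mfp2-/- replicates 1, 2 or 4 was left out, 0.0508 in DESeq2 and 0.0734 without both Mfp2-/- replicates 2 and 3.

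Of the inhibitors of NF-kB, Tnfaip3 was far lower in Mfp2-/- retinas, whereas Nfkbia was slightly higher and not called. Tnfaip3 (chromosome 10, 19000910 to 19015657) encodes A20, a ubiquitin-editing enzyme that shuts off signalling from TNFR1 to IKK. It was at 44.8, 53.4, 55.5 and 46.3 CPM in control and at 6.72, 8.64, 9.08 and 3.31 CPM in Mfp2-/- retinas. The means were 49.99 ± 5.24 and 6.94 ± 2.63 CPM, and the log2 fold change was -2.85 with a standard error of 0.25. Even the highest Mfp2-/- retina was far below the lowest control. Nfkbia (chromosome 12, 55489410 to 55492647) encodes IkB-alpha, which holds NF-kB dimers in the cytoplasm. It was at 105, 116, 124 and 119 CPM in control and at 133, 179, 171 and 127 CPM in Mfp2-/- retinas. Here the groups lay close, since the highest control was at 124 and the lowest Mfp2-/- retina at 127 CPM, and the log2 fold change was 0.39 with a standard error of 0.15. The value rested on Mfp2-/- replicates 2 and 3, the libraries that stood apart, and was 0.16 without both. Without them Tnfaip3 was at -3.30, further from control than with them.

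Within a library the contrast is free of the scaling between libraries. There were 2.35, 2.18, 2.23 and 2.57 counts of Nfkbia per count of Tnfaip3 in control replicates 1 to 4, an almost constant ratio. In Mfp2-/- replicates 1 to 4 there were 19.8, 20.8, 18.8 and 38.4. The control ratios had a mean of 2.33 ± 0.174 and the Mfp2-/- ratios one of 24.5 ± 9.36 (SD, n = 4). Most of this difference came from Tnfaip3, which was 7.21-fold lower, whereas Nfkbia was 1.31-fold higher. Both genes carry a kappa B consensus match within the first 30 bases upstream of their start sites, as printed above. Rod markers were at lower levels in the same retinas as Tnfaip3 (median log2 fold change -4.31 over the 15 markers, with Sag and Gnat1, which encode arrestin and rod transducin, at -4.24 and -5.39). The part of rod RNA in the level of Tnfaip3 was not tested.

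**Figure D3:**
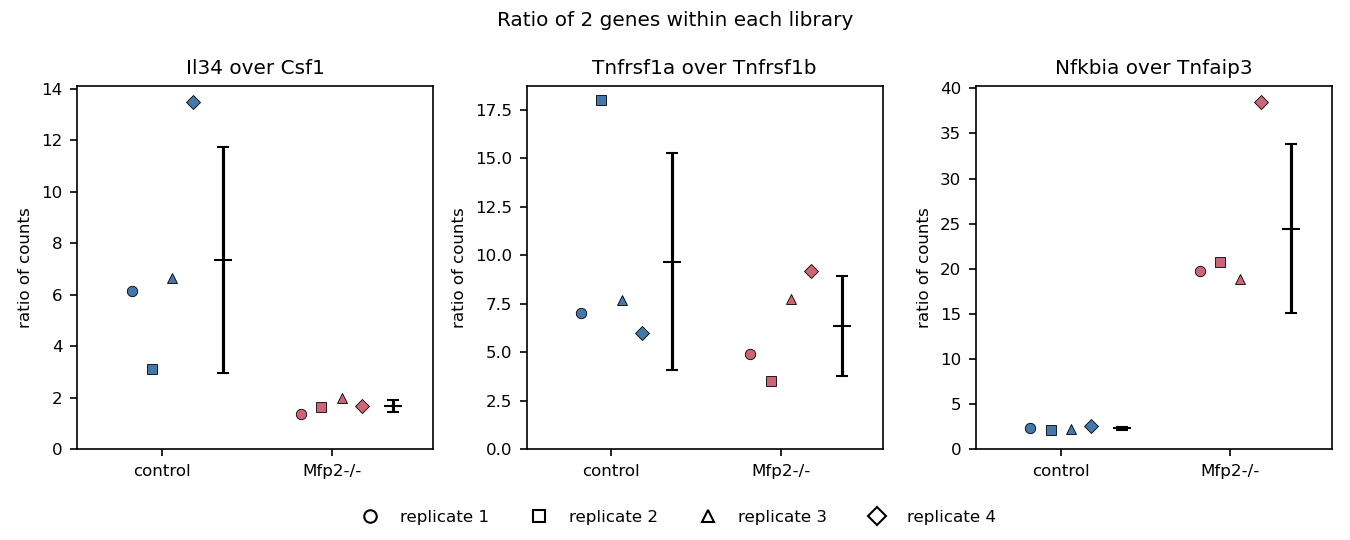
Ratio of the counts of a pair of genes within each library (vertical axes, linear and from 0), for Il34 over Csf1, Tnfrsf1a over Tnfrsf1b and Nfkbia over Tnfaip3. Symbols are libraries by replicate number, blue for control and red for Mfp2-/-, and bars are mean ± SD (n = 4). The first and the last ratio are apart between genotypes and the ratio of the TNF receptors overlaps.

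Other inhibitors and feedback regulators were called in either direction at shares near those of all genes. Of 11 tested genes of 15 listed besides Tnfaip3 and Nfkbia, 2 rose and 2 fell, with a median log2 fold change of -0.08. These were 18.2% in each direction, against 13.8% higher and 13.2% lower among all genes. Bcl3, an IkB protein that acts in the nucleus with the p50 and p52 subunits, rose from 0.798 ± 0.267 to 9.57 ± 2.49 CPM (log2 fold change 3.46, SE 0.37, edgeR adjusted p = 6.8e-05). Nfkbiz, another nuclear IkB protein, was at 10.1 ± 1.74 and 16.9 ± 3.98 CPM (log2 fold change 0.75, edgeR adjusted p = 0.0332). This gene was named after its values were seen, and leaving out any of control replicates 1, 2 or 4 or Mfp2-/- replicates 1 or 4 gave an adjusted p of 0.0537 to 0.0809. The genes that fell both encode partners of A20, but not every A20 partner in the list was called lower. Tnip1, Itch and Rnf11 were at log2 fold changes of 0.43, -0.57 and -0.08 and were not called (edgeR adjusted p = 0.111, 0.137 and 0.721). Tnip2 fell from 21.4 ± 2.01 to 9.30 ± 2.07 CPM (log2 fold change -1.20, SE 0.20, edgeR adjusted p = 0.00169) and Tax1bp1 from 707 ± 129 to 308 ± 142 CPM (log2 fold change -1.20, SE 0.31, edgeR adjusted p = 0.0167). Without Mfp2-/- replicate 3 the adjusted p of Tax1bp1 was 0.0547, and without both replicates 2 and 3 its log2 fold change was -0.74 (adjusted p = 0.00421).

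Relb (chromosome 7, 19606217 to 19629438) encodes the NF-kB subunit of the alternative pathway. It had 4, 5, 3 and 0 counts in control and 8, 6, 11 and 13 counts in Mfp2-/- libraries, too few for the fit. The ratio of the summed counts, scaled to library size, was 3.30, and its exact 95% bounds, which reflect counting error alone, were 1.69 and 6.94. In CPM the highest control was at 2.26 and the lowest Mfp2-/- retina at 2.83. Of its partners, Nfkb2, whose product p52 pairs with RELB, had 0, 0, 1 and 2 counts in control and 3, 13, 8 and 4 counts in Mfp2-/- libraries, and shares 299 exon bases with Psd on the other strand, which had 1292 counts. Nfkb1, which encodes p50, rose from 4.59 ± 2.46 to 9.91 ± 1.56 CPM (log2 fold change 1.13, SE 0.36, edgeR adjusted p = 0.0405). This call was not kept without control replicate 1, control replicate 4, Mfp2-/- replicate 1 or Mfp2-/- replicate 3 (adjusted p = 0.0758 to 0.102). Rela, the main activating subunit, was at 27.4 ± 5.21 and 34.1 ± 6.75 CPM (log2 fold change 0.31, SE 0.19, edgeR adjusted p = 0.251) and Rel at 1.85 ± 0.835 and 2.19 ± 0.481 CPM, both with overlapping groups.

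The targets Vcam1, Icam1 and Ccl2 encode proteins that recruit leukocytes. Vcam1 (chromosome 3, 116109949 to 116129688), an adhesion molecule for integrin alpha 4 beta 1 on leukocytes, was at 14.6, 12.7, 18.4 and 12.5 CPM in control and at 52.0, 54.9, 40.7 and 62.1 CPM in Mfp2-/- retinas. The log2 fold change was 1.84 with a standard error of 0.19, and the groups were wide apart. Icam1 (chromosome 9, 21015985 to 21028817), the ligand of beta 2 integrins, had 1, 0, 1 and 0 counts in control and 9, 7, 13 and 13 counts in Mfp2-/- libraries. The ratio of summed counts was 21.9 with exact 95% bounds of 5.69 and 187. The control level of Icam1 is therefore hardly known, whereas in Mfp2-/- retinas it was at 3.18 to 4.78 CPM. It shares 511 exon bases with Gm47079 on the other strand. Ccl2 (chromosome 11, 82035571 to 82037453), the chemokine MCP-1 that attracts monocytes, had 0 counts in all control libraries and 25, 9, 10 and 11 counts in Mfp2-/- replicates 1 to 4. With a floor of 3 counts over the control group it was at least 19.1-fold higher in Mfp2-/- retinas, where it was at 8.85, 4.57, 3.36 and 4.04 CPM. Replicate 1 was the highest, and the remaining libraries were alike.

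Of the integrins and ligands around these targets, Itgb1, the beta 1 integrin chain, rose from 54.2 ± 6.95 to 90.0 ± 4.30 CPM (log2 fold change 0.73, edgeR adjusted p = 0.00209). Itga4, the alpha 4 chain, was not called and had overlapping groups, at 8.28 ± 1.56 and 10.5 ± 6.51 CPM (log2 fold change 0.37, edgeR adjusted p = 0.55). Selplg, the leukocyte ligand of the selectins, rose from 18 counts over the control to 75 over the Mfp2-/- libraries (log2 fold change 2.09, edgeR adjusted p = 0.00954). Itgb1 and Selplg were the 2 genes that rose among 5 tested leukocyte adhesion genes of 14 listed, and none fell. Among 8 adhesion genes with too few counts for the fit, Itgb2 (5 and 44 counts) and Itgam (12 and 57 counts), chains of the beta 2 integrins that bind ICAM-1, had all Mfp2-/- libraries above all controls, and were named after their values were seen. For Itgam the separation rested on the scaling, with 5 counts in both control replicate 3 (1.61 CPM) and Mfp2-/- replicate 4 (1.84 CPM). Of 26 other chemokines listed, 6 were tested and 1 rose, Cx3cl1, the neuronal ligand of the microglial receptor CX3CR1, from 72.8 ± 8.14 to 111 ± 12.1 CPM (log2 fold change 0.61, edgeR adjusted p = 0.00759). None of the other 5 tested chemokines was called. Of 17 chemokines with counts too low for the fit, 7 had every Mfp2-/- library above every control, and none the reverse. Summed over the libraries of each genotype, Ccl3 was seen with 5 and 38 counts (control and Mfp2-/-), Ccl4 with 1 and 27, Ccl5 with 0 and 20 and Ccl12 with 3 and 41. The neutrophil-attracting Cxcl1 had 1 and 22 counts, Cxcl2 0 and 20, and the interferon-induced Cxcl10 2 and 28. These genes were named after their values were seen, and Ccl5 and Cxcl2 had only 1 count in Mfp2-/- replicate 2. For Ccl4 the separation rested on 2 counts in Mfp2-/- replicate 3 (0.672 CPM) against 1 in control replicate 2 (0.452 CPM).

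Markers of the cells that these proteins attract, and of the vessels that carry VCAM-1 and ICAM-1, were read in the same libraries. The summed level of 10 monocyte and neutrophil markers was 21.6 to 40.4 CPM in control and 49.1 to 89.7 CPM in Mfp2-/- retinas. Of these markers 2 were tested and 1 rose, Fn1, which many other cells express (23.5 ± 5.57 to 56.1 ± 10.7 CPM, log2 fold change 1.26, edgeR adjusted p = 0.00124). Vcan was at 6.08 ± 3.36 and 12.6 ± 8.61 CPM (edgeR adjusted p = 0.149), but was called higher without Mfp2-/- replicates 2 and 3 (log2 fold change 1.61, adjusted p = 0.00877). Ly6c2, Cd177 and Retnlg were at 0 in all libraries. For 12 lymphocyte markers the sums were 1.81 to 2.58 and 2.12 to 7.62 CPM, none could be tested, Lck had 9 and 12 and Cd8a 7 and 4 counts in the control and Mfp2-/- groups, and Cd3e, Cd3g and Ms4a1 were at 0 in all libraries. The sum of 14 endothelial and pericyte markers was 415 to 441 CPM in control and 583 to 594 CPM in Mfp2-/- retinas, where 2 of 9 tested markers rose. These were Kdr, the VEGF receptor 2 (158 ± 20.8 to 315 ± 42.1 CPM, log2 fold change 0.99, edgeR adjusted p = 0.000732), and Vwf, von Willebrand factor (2.61 ± 0.685 to 7.50 ± 1.62 CPM, log2 fold change 1.49, edgeR adjusted p = 0.00554). Vwf was named after its values were seen and reached the level required by the filter in Mfp2-/- libraries only. Kdr made up most of the difference in the sum. Flt1 was at 102 ± 11.9 and 112 ± 28.1 CPM (edgeR adjusted p = 0.612), and the pericyte marker Rgs5 and the endothelial marker Pecam1 had log2 fold changes of -0.28 and -0.48 that did not pass the test.

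Müller glia and astrocyte markers, from cells that can also make CCL2 and ICAM-1, had summed levels of 4051 to 4719 CPM in control and 5140 to 6773 CPM in Mfp2-/- retinas, and 7 of 13 tested rose. Apoe rose from 603 ± 81.9 to 1679 ± 242 CPM (log2 fold change 1.48, edgeR adjusted p = 5.45e-05), and Glul was at 2300.02 ± 312 and 1604 ± 525 CPM (log2 fold change -0.52, edgeR adjusted p = 0.111, and -0.75 with an adjusted p of 0.0144 without Mfp2-/- replicates 2 and 3). Retinal pigment epithelium markers had overlapping sums of 209 to 437 and 321 to 569 CPM, and none of 8 tested was called in edgeR's fit. Of the most abundant of them, Ttr was at 220 ± 72.9 and 304 ± 90.8 CPM (edgeR adjusted p = 0.22) and Rgr at 34.2 ± 12.9 and 19.4 ± 4.21 CPM (edgeR adjusted p = 0.061). Rgr passed the threshold in DESeq2 (adjusted p = 0.0472), without a filter (0.034) and without control replicate 4 (0.00751). The part of these cell types in the levels of the 10 genes was not tested.

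**Figure D4:**
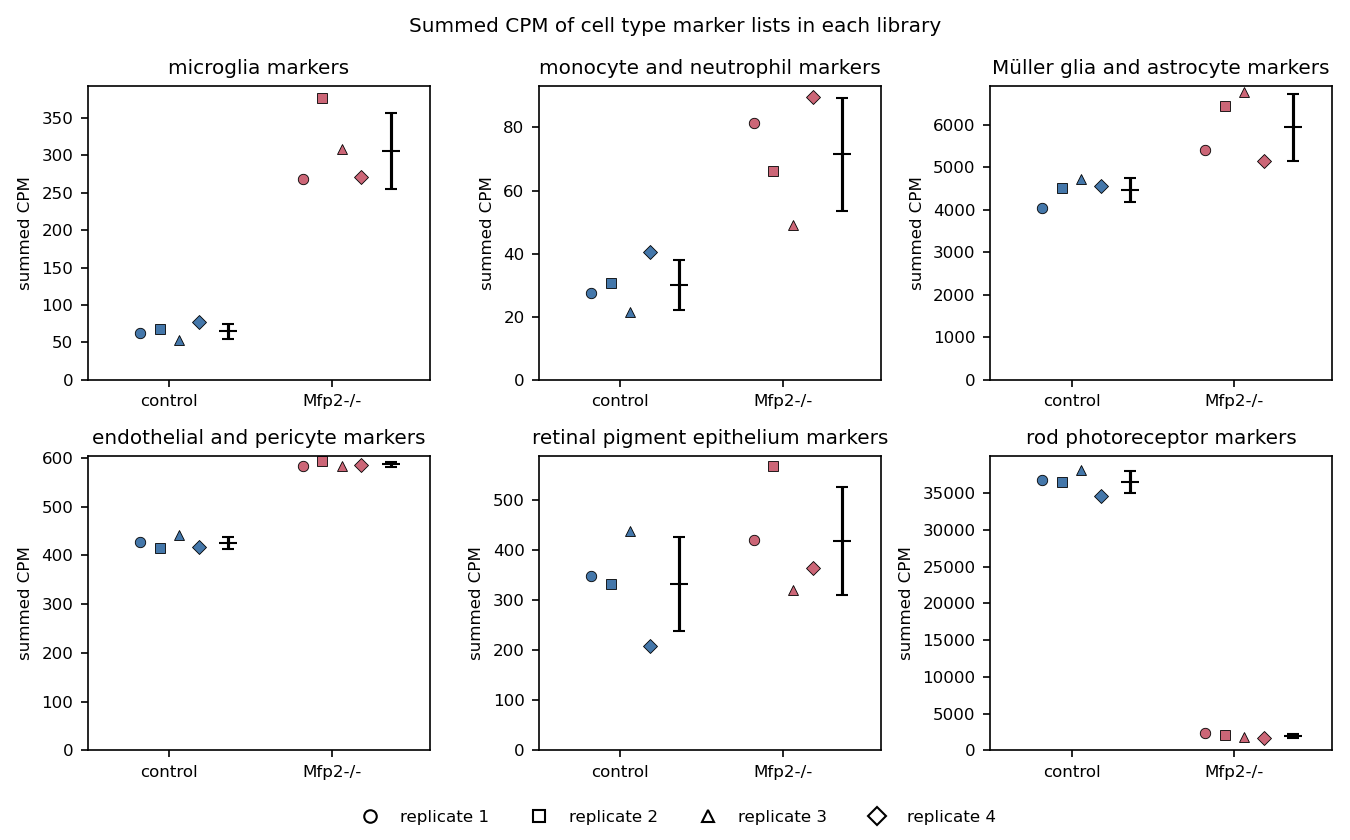
Summed CPM of 6 cell type marker lists in each library (vertical axes, linear and from 0, a scale of its own for each list). Symbols are libraries by replicate number, blue for control and red for Mfp2-/-, and bars are mean ± SD (n = 4). The microglia sum is at 52.9 to 77.0 CPM in control and 268 to 377 CPM in Mfp2-/- retinas, the rod sum is far lower in Mfp2-/- retinas, and the retinal pigment epithelium sums overlap.

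Among 29 other known NF-kB target genes, 17 were tested, 10 rose and 2 fell, and their median log2 fold change was 1.00. All 10 further targets with counts too low for the fit had overlapping groups, Il1b, Ptgs2 and Nos2 among them. Lcn2, the iron-binding acute phase protein lipocalin 2, was at 4.73, 5.43, 1.61 and 3.14 CPM in control and at 257, 249, 237 and 231 CPM in Mfp2-/- replicates 1 to 4 (log2 fold change 6.05, SE 0.26, edgeR adjusted p = 1.5e-07). Ccnd1, the cell cycle regulator cyclin D1, rose from 22.3 ± 3.91 to 93.5 ± 23.7 CPM (log2 fold change 2.06, edgeR adjusted p = 3.88e-05). Ier3, an immediate early gene, went the other way, from 187 ± 8.76 to 71.6 ± 14.1 CPM (log2 fold change -1.39, edgeR adjusted p = 7.13e-05). The target genes were thus not uniform in direction. The inhibitors were unlike as well, with Tnfaip3 far lower and Nfkbia slightly higher and not called.

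The remaining called targets were named after their values were seen, to complete these counts. Cybb, the phagocyte NADPH oxidase subunit, and Tnfaip2 rose the most, by 3.85 and 3.34 on the log2 scale (edgeR adjusted p = 0.000482 and 0.00142), from mean control levels under 1 CPM. Both reached the level required by the filter in Mfp2-/- libraries only, so the filter itself favoured a rise in them. Irf1, an interferon-responsive transcription factor, rose by 2.01 (edgeR adjusted p = 0.00149) and the stress genes Gadd45b and Junb by 1.56 and 1.15 (edgeR adjusted p = 0.00342 and 0.00326). Mmp9, a matrix metalloproteinase, and the kinase gene Nuak2 rose by 1.12 and 1.00 (edgeR adjusted p = 0.00494 and 0.0103), and Tapbp, which loads antigen peptides, by 0.52 (edgeR adjusted p = 0.0494). The Nuak2 call was lost without both Mfp2-/- replicates 2 and 3 (adjusted p = 0.0617), and that of Tapbp was lost with limma-voom (adjusted p = 0.0539), with RLE factors (0.0502) and on leaving out any control library or Mfp2-/- replicate 2 or 3 (0.0636 to 0.132). Xiap, an inhibitor of caspases, fell from 428 ± 40.5 to 118 ± 64.3 CPM (log2 fold change -1.86, edgeR adjusted p = 0.00496). Junb shares 173 exon bases with the abundant Prdx2 on the other strand, and Tapbp 149 with Zbtb22 on the same strand and 904 with Gm19412 on the other. Ccnd1 shares 1100 exon bases with LTO1 on the other strand.

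**Figure D5:**
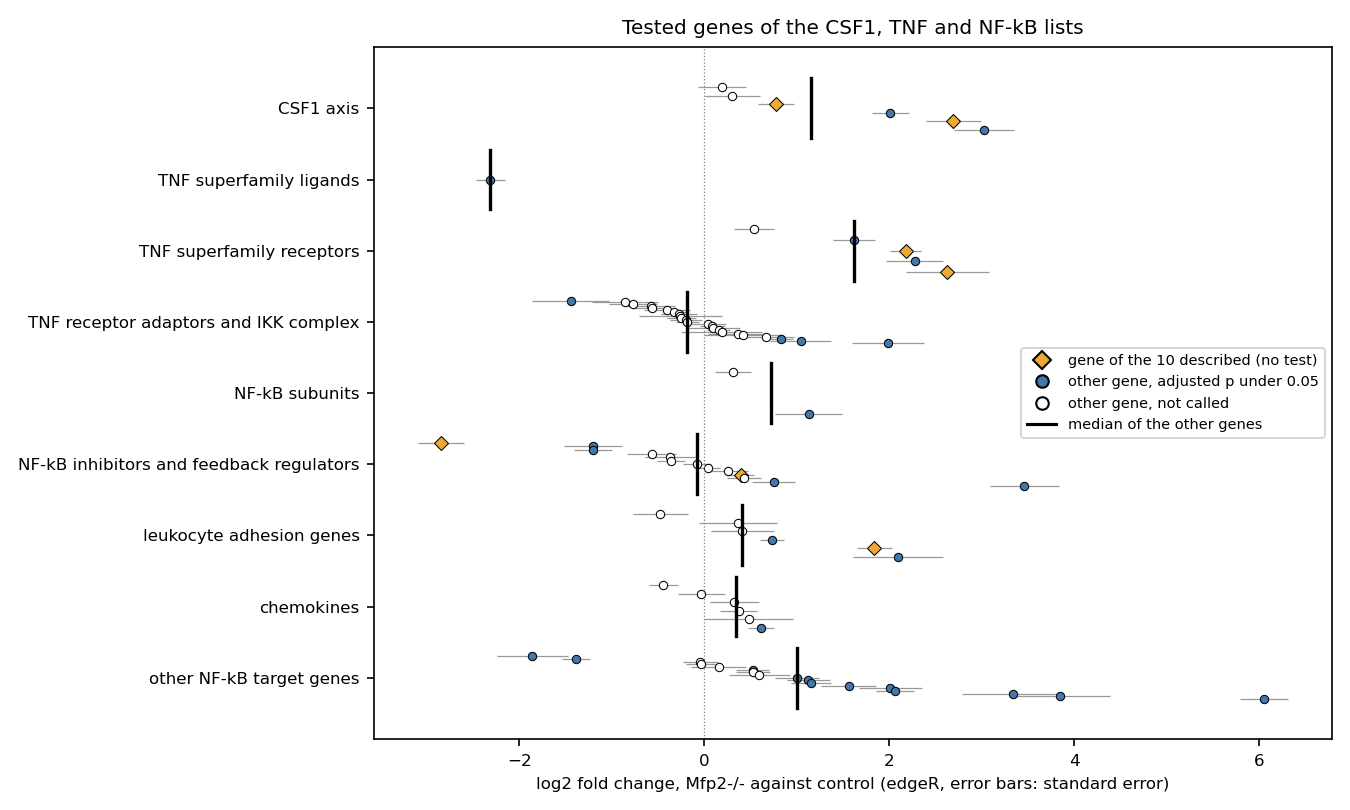
Log2 fold change of Mfp2-/- against control (horizontal axis, error bars are standard errors, from edgeR) for the tested genes of 9 lists. Diamonds are the genes of the 10 that were tested, shown without a test, filled circles are other genes at an adjusted p under 0.05, open circles genes not called, and vertical bars the medians of the other genes. Tnfaip3 stands at -2.85 and Nfkbia at 0.39 in the same list, and Lcn2 is at 6.05.

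Over the 9 lists together, without the 10 genes, 72 of 154 genes were tested, 23 rose (31.9%, against 13.8% of all genes) and 6 fell (8.33%, against 13.2%), with a median log2 fold change of 0.31 against -0.0039 over all genes. The lists were written with earlier results of these data known, so nothing is read from these shares or this median. Without Mfp2-/- replicates 2 and 3 the counts were again 23 and 6, of which 19 and 6 were the same genes. The number that rose depended on the filter, with 12 when 10 counts were required in every library and 36 without a filter. Some genes that rose, such as Tyrobp, Bcl3, Irak4, Selplg, Cybb and Tnfaip2, reached the level required by the filter in Mfp2-/- libraries only. For such genes the filter itself favoured a rise. Of 65 further list genes with counts too low for the fit, 16 had every Mfp2-/- library above every control and none the reverse. Among all 9579 such genes 3.9% and 2.39% did. Those 9579 include genes with too few counts for the groups to separate. The shares are thus not matched in counts, and nothing is read from their difference.

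The 10 genes did not rank the Mfp2-/- retinas alike. Replicate 2 was the highest for Csf1, Il34, Tnfrsf1b and Nfkbia, replicate 4 for Tnfrsf1a, Relb, Vcam1 and Icam1, replicate 1 for Ccl2 and replicate 3 for Tnfaip3. Csf1r and the microglia sum were also highest in replicate 2, at 88.4 and 377 CPM. Among the controls, the Mfp2+/- library was above the 3 Mfp2+/+ libraries for Csf1, Tnfrsf1a and Relb, below them for Il34 and Tnfrsf1b, and within their range for the other 5 genes. In Csf1 it was at 3.62 CPM against at most 2.55 CPM in Mfp2+/+ libraries, a small distance beside the 13.4 CPM of the lowest Mfp2-/- retina. With 1 Mfp2+/- mouse its difference from Mfp2+/+ could not be tested.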

How the data were processed

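RNA of both neural retinas of 8 mice was sequenced with the QuantSeq 3′ kit. The deposited values are counts of reads per gene symbol that the authors made without normalization, listing FastQC 0.11.7, HISAT2, SAMtools 1.5 and HTSeq (from the submitters' processing notes) and the genome mm10. Neither the annotation release nor whether HTSeq used strand is stated in those sources. The table of the whole series held 0 different values over 21129 shared symbols and was fitted as an alternative (3372 genes called against 3377).

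Genotypes were taken from the labels, with the Mfp2+/- mouse among the controls as in the study. Counts were fitted in R 4.3.3 with edgeR 4.0.16 (quasi-likelihood F-test, TMM factors, genotype as the only term, Benjamini-Hochberg adjustment over 12516 genes). Genes had to reach 3.54 CPM, before scaling with TMM factors, in 4 libraries (filterByExpr). Levels are CPM scaled with TMM factors. Library totals of 1895485 to 3226187 counts limit the precision of genes under about 1 CPM. Ratios of summed counts have exact binomial intervals, which cover counting error only since reads were not collapsed by molecule.

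The genes and lists were chosen with earlier results of these data known. Named besides the 10 genes were up to 3 called genes of each pathway list with the smallest adjusted p, Csf1r, Tnf, the NF-kB subunits, the 2 most abundant genes of each marker list, and Hsd17b4. One gene taken by this rule is not reported here. Coordinates are from GENCODE on GRCm38, the assembly that mm10 names. The scripts were tested on simulated data. Alternatives were other factors and filters, DESeq2 1.42.0, limma-voom (limma 3.58.1), a robust fit, a replicate block, the series-wide table and leaving out libraries.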

Additional observations from a re-analysis of the deposited data

Results flagged for a closer look

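In 8 of 142 groups of 4 libraries, taken over the genes and ratios described, 1 library lay far from the other 3 by Dixon's criterion. Chance flags about 1 in 20 groups. Mfp2-/- replicate 2 stood above the other Mfp2-/- libraries for Tnfrsf21 (90.4 CPM, the next at 50.01), Rela (44.2 CPM, the next at 31.3) and Mmp9 (56.4 CPM, the next at 36.3). It is one of the libraries with fewer reads outside genes. Mfp2-/- replicate 4 stood above the others for Irak1 (57.4 CPM, the next at 49.3) and for the ratio of Nfkbia to Tnfaip3 counts (38.4, the next at 20.8). Control replicate 2, the Mfp2+/- library, stood above the other controls for Tnip2 (24.4 CPM, the next at 20.6) and for the ratio of Tnfrsf1a to Tnfrsf1b counts (18.0, the next at 7.67), which rests on 1 count of Tnfrsf1b. Control replicate 1 was below the other controls for Glul (1833 CPM, the next at 2429). The cause of these distances was not tested.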

How the results depend on the processing

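No direction of the 10 genes reversed in any of the 20 settings in which it could be fitted. Leaving out 1 library gave log2 fold changes of 2.52 to 2.93 for Csf1, 0.67 to 0.93 for Il34, 2.11 to 2.23 for Tnfrsf1a, 2.34 to 2.80 for Tnfrsf1b, -3.03 to -2.60 for Tnfaip3, 0.31 to 0.49 for Nfkbia, 1.76 to 1.98 for Vcam1 and 3.79 to 4.58 for Icam1. The fitted value of Ccl2 depends on the prior count, as all controls are at 0, and is not given. Icam1 and Ccl2 could be fitted in only some settings and Relb without the filter alone. Of the 10 genes, 5 to 7 were called higher and 1 lower on leaving out 1 library, and Il34 was not called without both Mfp2-/- replicates 2 and 3. With at least 10 counts required in every library, 3 were called higher and 0 lower, since this filter removes genes low in 1 genotype, Tnfaip3 included. The pathway genes that rose then numbered 12, and 36 without a filter. Upper-quartile and no factors moved the median of all genes to 0.12, and the genes called higher and lower to 2369 and 1322 and to 2423 and 1291, against 1728 and 1649. Nfkbia was called with both and without Mfp2-/- replicate 4. The looser motif was in the promoters of 6 genes against 3 with the consensus. With the replicate number as a block, 1355 genes rose and 1490 fell, with 20 and 6 in the pathway lists, Tradd, Nfkbiz and Tapbp were not called and Vcan was (adjusted p = 0.0269). Glul was also called without Mfp2-/- replicate 3 (adjusted p = 0.0432). The labels do not say whether the numbers pair the mice. Same-numbered libraries correlated at -0.16 to 0.25 and differently numbered ones at -0.44 to 0.48, which cannot decide it. Counts under about 10 per group, as for Tnf, cannot show differences at this depth.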
